A study of Mus musculus with 8 samples.

Results

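The genes described here are 10 mouse genes that build, modify or carry the lipids of the epidermal permeability barrier: Elovl4, Slc27a4, Cers3, Pnpla1, Abhd5, Alox12b, Aloxe3, Abca12, Ugcg and Smpd1. They were chosen by function, with earlier results of these data known. The probes of each were found through the RefSeq accession that the array gives. All 10 were on the array, among 36799 genes and other targets, and all 10 were among the 23139 targets bright enough to be tested. The samples were epidermis of newborn back skin at postnatal day 0 (P0), with C57BL/6 given as the strain. There were 4 samples of EED cKO epidermis (K14-Cre; EED flox/flox) and 4 control samples. The alleles of these controls are not given in the sources used here, while the RT-qPCR of the study used siblings without Cre. K14-Cre is active in the epidermal progenitors, so cells of the preparation that do not descend from them, such as immune cells and melanocytes, are not targets of the deletion. Each sample shared its array with Universal Mouse Reference RNA, a commercial mix common to the 8 arrays, and all values are log2 ratios of sample over reference. In each genotype replicates 1 and 3 had the sample in Cy3, and the dyes were swapped for 2 and 4.

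The outermost layers of the epidermis hold water in by means of stacked lipid sheets of ceramides, cholesterol and free fatty acids between the dead cells. Keratinocytes of the granular layer elongate fatty acids to very long chains, join them to a sphingoid base, esterify the omega end with linoleate, and load the product as glucosylceramide into lamellar granules. After secretion the sugar and phosphocholine groups are removed, and lipoxygenases oxidize the linoleate so that the ceramide can be bound to the cornified envelope. Loss of several of these genes causes ichthyosis, a scaling skin disease, in humans. EED is a subunit of Polycomb repressive complex 2 (PRC2), which methylates histone H3 at lysine 27 and is found mainly at CpG-rich promoters of silent genes. The comparison of EED cKO with control epidermis asks what loss of PRC2 does to expression in the epidermis.

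The barrier lipid genes differed little between the genotypes. In the fit across all targets, Ugcg and Abhd5 were higher in EED cKO, by 1.34-fold and 1.24-fold, no member was lower, and 8 did not pass an adjusted p of 0.05 (limma, Benjamini-Hochberg over 23139 targets). Of all targets tested, 11.8% were higher and 9.93% were lower by the same rule, so 2 of 10 is not far from the background. No member reached a 2-fold difference with an adjusted p below 0.05, as did 1.20% of all targets. The log2 difference was above 0 for 8 of the 10 members and for 12464 of the 23139 targets tested. The median was 0.24 for the members and 0.02 over all targets tested. The 95% interval of the log2 difference lay within 1 of 0, that is within a 2-fold change either way, for all 10 members and for 96.5% of all targets. At an unadjusted p below 0.05 limma had 5 of the 10 members higher and 0 lower, against 19.5% of all targets higher and 16.3% lower. The methods' t-test had 2 members higher at this threshold, against 13.4% of all targets. Of these 2 members 0 passed after Benjamini-Hochberg adjustment, against 2.56% of all targets higher, and 0 were at least 2-fold different.

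**Figure D1:**
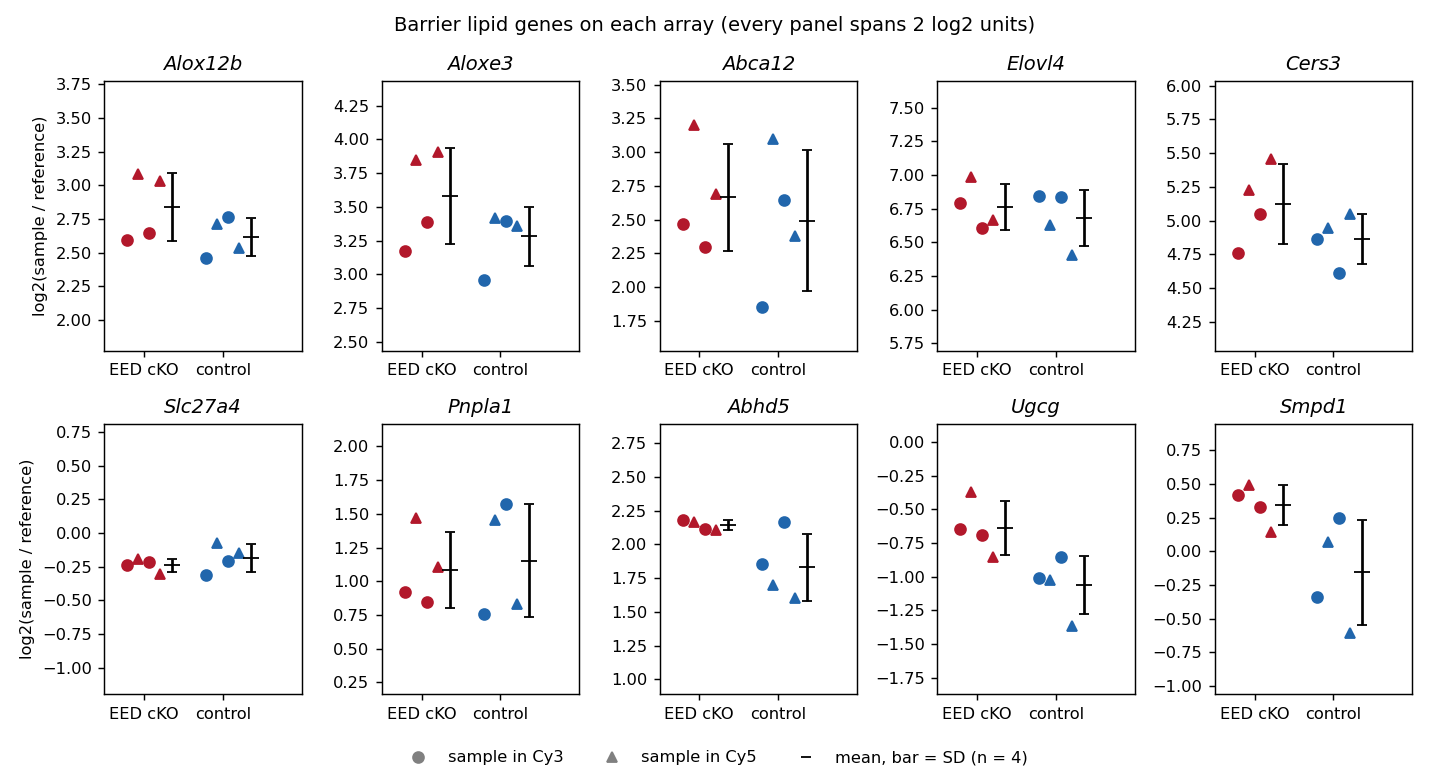
Log2 ratio of sample over reference (vertical axis) of the 10 barrier lipid genes on each of the 8 arrays, with EED cKO in red and control in blue, circles for samples in Cy3 and triangles for samples in Cy5. Points run from replicate 1 to 4 within a genotype, black marks give the mean and SD (n = 4), every panel spans the same 2 log2 units, and only the points of Ugcg do not overlap between genotypes.

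Eed itself checked the labels. Its log2 ratio ran from −2.04 to −1.66 on the EED cKO arrays and from −0.46 to −0.18 on the control arrays, a log2 difference of −1.46 (SE 0.09). Well above background in the sample channel were 53.3% to 65.5% of the spots on the EED cKO arrays and 51.5% to 65.4% on the control arrays. All 15 probes of the members were above background on 8 of 8 arrays. Each genotype had a slide row of its own, so that genotype and row cannot be told apart. The reference channel, in which the RNA was the same everywhere, had 117 targets with an adjusted p below 0.05 between the genotypes, and none of them was a member. The Y-linked genes averaged 1.19 and 1.02 on control replicates 2 and 3 and −1.51 to −1.31 on the other 6 arrays, so the control group was mixed in this respect and the EED cKO group was not. The samples are named biological replicates, and whether each was 1 mouse or a pool is not given in the sources used here.

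Sequence just upstream of the start site was taken for 9 of the 10 members from RefSeq (GRCm38.p6), as windows of 250 bases. The number of CG dinucleotides, the feature that marks CpG-rich promoters, varied widely among them. Ugcg had 43, and 0.712% of all 32851 mouse windows of this kind had as many or more. Elovl4 had 25, Abhd5 22, Smpd1 16, Alox12b 11, Slc27a4 8, Cers3 6, and Abca12 and Pnpla1 5 each, while the median over all windows was 6. The windows of Ugcg and Abhd5 are shown because these are the members called higher, and that of Abca12 as an example with few CG. Each is read 5′ to 3′ on the strand of the gene, and capitals mark CG.

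Ugcg: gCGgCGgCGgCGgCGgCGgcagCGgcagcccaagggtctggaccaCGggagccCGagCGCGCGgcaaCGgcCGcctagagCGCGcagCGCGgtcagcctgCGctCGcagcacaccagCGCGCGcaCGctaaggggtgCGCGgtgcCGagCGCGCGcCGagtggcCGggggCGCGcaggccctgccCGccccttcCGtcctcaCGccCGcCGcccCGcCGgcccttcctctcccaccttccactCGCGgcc

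Abhd5: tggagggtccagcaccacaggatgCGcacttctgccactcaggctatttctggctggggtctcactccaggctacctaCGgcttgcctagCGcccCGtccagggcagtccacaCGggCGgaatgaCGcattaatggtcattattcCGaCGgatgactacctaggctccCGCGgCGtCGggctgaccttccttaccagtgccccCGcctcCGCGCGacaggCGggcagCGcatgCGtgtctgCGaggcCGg

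Abca12: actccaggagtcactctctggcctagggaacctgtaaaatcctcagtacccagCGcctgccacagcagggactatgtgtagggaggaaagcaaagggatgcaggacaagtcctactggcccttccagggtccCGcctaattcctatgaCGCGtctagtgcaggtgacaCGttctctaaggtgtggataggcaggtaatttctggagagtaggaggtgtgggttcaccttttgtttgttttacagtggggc

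The Ugcg window is chr4:59189300-59189549 on the plus strand, that of Abhd5 is chr9:122351366-122351615 on the plus strand, and that of Abca12 is chr1:71414911-71415160 on the minus strand. Elovl4, with 25 CG, had a log2 difference of 0.08 (limma adjusted p = 0.668), and Smpd1, with 16 CG, had one of 0.50 (adjusted p = 0.0622). Neither passed, and a relation between the number of CG and the differences was not tested. The grainyhead motif AACCNGTT, searched on both strands, was in the windows of 0 of 9 members and in 1.79% of all windows. The AP-1 motif TGANTCA was in 0 of 9 and in 6.75% of all windows. Both motifs are those of factors active in the epidermis, and their absence here concerns these letters in these windows alone. Alox12b and Aloxe3 are next to each other on chromosome 11, with no protein-coding gene between them.

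Ugcg encodes glucosylceramide synthase, which adds glucose to ceramide and so makes the form in which ceramide is packed into lamellar granules. Its log2 ratios were −0.65, −0.37, −0.69 and −0.85 on EED cKO arrays 1 to 4 and −1.01, −1.02, −0.86 and −1.37 on control arrays 1 to 4. The lowest EED cKO array and the highest control array lay next to each other, and the groups did not overlap, as was so for 17.2% of all targets. The log2 difference was 0.42 (SE 0.13, 95% interval 0.14 to 0.71, limma adjusted p = 0.0402). The exact permutation test over the 8 arrays gave p = 0.0286, two-sided, which is the smallest p that 4 against 4 can give. Within the replicate numbers the differences were 0.36, 0.65, 0.17 and 0.51. Groups that do not overlap fix the sign of these differences and the permutation p in advance, so neither adds to that. With the replicate number as a block the adjusted p was 0.0125. The call did not hold when any one array other than control replicate 3 was left out, where the adjusted p reached up to 0.0944 and the log2 difference lay between 0.30 and 0.49.

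Smpd1 encodes acid sphingomyelinase, which removes phosphocholine from secreted sphingomyelin to give ceramide. The arrays gave log2 ratios of 0.41, 0.49, 0.33 and 0.14 in EED cKO and −0.34, 0.07, 0.25 and −0.60 in control. The groups overlapped because EED cKO replicate 4 lay below control replicate 3. The control values spread more (SD 0.39, n = 4) than those of EED cKO (SD 0.15, n = 4). The log2 difference of 0.50 (SE 0.17, 95% interval 0.12 to 0.88) was the largest of the 10, but it did not pass (limma adjusted p = 0.0622, exact permutation p = 0.0571, two-sided). It was above 0 in 4 of 4 replicate pairs, at 0.75, 0.42, 0.08 and 0.75, and with the replicate number as a block it passed (adjusted p = 0.0188). Without control replicates 2 and 3, which have the high Y-linked signal, the log2 difference was 0.82 (adjusted p = 0.00505), and with the Y-linked level as a covariate it was 0.79 (adjusted p = 0.00366). It also passed without control replicate 2 alone, at 0.62 (adjusted p = 0.0492), and without control replicate 3 alone, at 0.63 (adjusted p = 0.0236). These were the only passes, 5 of the 25 alternatives run. With 1 array left out the log2 difference of Smpd1 went down to 0.35 and the limma adjusted p up to 0.147. With median centring the adjusted p was 0.261.

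Abhd5 encodes a lipase co-activator (also known as CGI-58) that works with Pnpla1. Its log2 ratios were 2.18, 2.16, 2.12 and 2.11 in EED cKO, the tightest group of all members (SD 0.04, n = 4), and 1.85, 1.70, 2.16 and 1.60 in control. Control replicate 3 lay within the EED cKO values and the other control arrays lay below them. The log2 difference was 0.31 (SE 0.10, 95% interval 0.09 to 0.53, limma adjusted p = 0.0479), and the exact permutation test gave p = 0.114, two-sided. With the replicate number as a block the adjusted p was 0.0534, which does not pass. The call rested on the brightest of 3 probes. The second probe had a log2 difference of −0.01 (adjusted p = 0.954) and the third one of 0.27 (adjusted p = 0.238), in a fit with every probe on its own. Leaving out control replicate 3 gave 0.41 (adjusted p = 0.00917), whereas leaving out any other single array ended the call, with log2 differences down to 0.26 and adjusted p up to 0.128.

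Pnpla1 encodes the transacylase that puts linoleate on omega-hydroxyceramide to form acylceramide. Its log2 ratios were 0.92, 1.47, 0.84 and 1.10 in EED cKO and 0.75, 1.45, 1.58 and 0.83 in control. The control arrays fell into a higher pair, replicates 2 and 3, and a lower pair, replicates 1 and 4. The log2 difference was −0.07 (SE 0.20, 95% interval −0.52 to 0.38, limma adjusted p = 0.842). Without control replicates 2 and 3 it was 0.29 (adjusted p = 0.186), so its direction turned with these arrays and no direction is given.

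Elovl4 encodes the elongase that makes very long chain fatty acids. Log2 ratios of 6.79, 6.99, 6.61 and 6.66 were measured in EED cKO and of 6.85, 6.63, 6.84 and 6.41 in control. Neither group stood above the other, and the log2 difference was 0.08 (SE 0.12, 95% interval −0.18 to 0.34, limma adjusted p = 0.668). A second probe of the gene gave 0.06 (SE 0.10), with control values between 5.36 and 5.48 inside the EED cKO range of 5.20 to 5.72.

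Slc27a4 encodes fatty acid transport protein 4, which takes up fatty acids and activates them with coenzyme A. For it the log2 ratios were −0.24, −0.20, −0.21 and −0.31 in EED cKO and −0.31, −0.07, −0.21 and −0.15 in control. Control replicates 2 and 4 lay above every EED cKO array and control replicate 1 below all of them, so that the groups overlapped. The log2 difference of −0.05 had the smallest error of the members (SE 0.07, 95% interval −0.21 to 0.11, limma adjusted p = 0.647). In the log ratios that Feature Extraction computed and in the deposited table of log2 ratios, together called the authors' ratios, it was −0.30 (adjusted p = 0.0733), which lies outside that interval.

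Cers3 encodes the ceramide synthase that joins ultra-long fatty acids to the sphingoid base. For Cers3 the log2 ratios were 4.76, 5.22, 5.05 and 5.46 in EED cKO and 4.87, 4.94, 4.61 and 5.05 in control. EED cKO replicate 1 lay below 3 of the 4 control arrays and EED cKO replicates 2, 3 and 4 lay above all of them, replicate 3 only just. The log2 difference was 0.26 (SE 0.10, 95% interval 0.03 to 0.48) and did not pass (limma adjusted p = 0.0963). It passed in 1 of the 25 alternatives run, without control replicate 1, at 0.33 (adjusted p = 0.0463). In the sample channel alone the difference was 0.06 (adjusted p = 0.745), and the reference channel differed by −0.19 (SE 0.10, adjusted p = 0.634). The second probe of Cers3 gave 0.07 (SE 0.08, adjusted p = 0.577).

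Alox12b and Aloxe3 encode the 2 epidermal lipoxygenases that act one after the other on the linoleate of acylceramide. The log2 ratios of Alox12b were 2.60, 3.09, 2.65 and 3.03 in EED cKO and 2.46, 2.71, 2.76 and 2.54 in control, with EED cKO replicates 2 and 4 above all control arrays. Its log2 difference was 0.22 (SE 0.11, 95% interval −0.02 to 0.46, limma adjusted p = 0.172), and its second probe gave 0.08 (SE 0.16). The log2 ratios of Aloxe3 were 3.18, 3.85, 3.39 and 3.91 in EED cKO and 2.96, 3.42, 3.40 and 3.36 in control. Here too EED cKO replicates 2 and 4, the arrays with the sample in Cy5, stood above all others. The log2 difference of Aloxe3 was 0.30 (SE 0.12, 95% interval 0.03 to 0.56, limma adjusted p = 0.101). Both lipoxygenase genes passed without control replicate 3, Alox12b at 0.32 (adjusted p = 0.0348) and Aloxe3 at 0.43 (adjusted p = 0.0107). Of the 25 alternatives run, Alox12b passed in 1 and Aloxe3 in 3. With 1 array left out the limma adjusted p rose to as much as 0.386 for Alox12b and 0.258 for Aloxe3.

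Abca12 encodes the transporter that loads glucosylceramide into lamellar granules. The log2 ratios of Abca12 were 2.47, 3.20, 2.29 and 2.69 in EED cKO and 1.85, 3.10, 2.65 and 2.38 in control, the widest control group of the members (SD 0.52, n = 4). The groups overlapped over most of their range, and the log2 difference was 0.17 (SE 0.20, 95% interval −0.29 to 0.63, limma adjusted p = 0.595). Without control replicates 2 and 3 it was 0.55 (adjusted p = 0.0427), and with the Y-linked level as a covariate 0.52 (adjusted p = 0.0419). Abca12 passed in these 2 of the 25 alternatives only. For Abca12, Smpd1 and Pnpla1, control replicates 2 and 3 were the highest control arrays, so leaving them out must raise the difference. The Y-linked level varied mainly between these replicates and the other controls, so the covariate fit is close to the same comparison. The Y-linked signal cannot be told apart from anything else that these 2 arrays share. The median of the 10 members was 0.24, against 0.38 without control replicates 2 and 3 and 0.37 with the Y-linked covariate. Without these 2 replicates Abca12, Abhd5, Aloxe3 and Smpd1 passed and Ugcg did not.

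**Figure D2:**
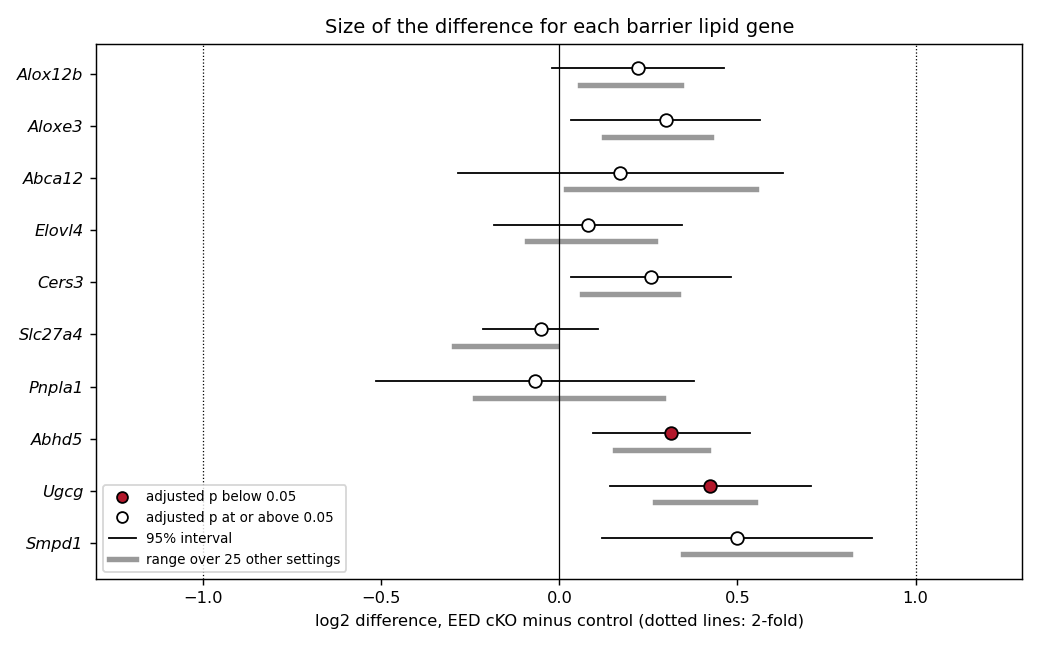
Log2 difference of EED cKO minus control (horizontal axis) for each barrier lipid gene, with circles for the fitted value, black lines for its 95% interval, and grey bars for the range of the value over 25 other ways of processing and leaving out arrays. Ugcg and Abhd5 are filled (adjusted p below 0.05), and no interval reaches the dotted lines at a 2-fold change.

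For some members the difference between the dyes was as large as that between the genotypes. With the sample in Cy5 the log2 ratio of Aloxe3 was higher by 0.40 (SE 0.12, limma adjusted p = 0.0422) and that of Cers3 by 0.35 (SE 0.10, adjusted p = 0.0396) than with the sample in Cy3. Dyes were balanced between the genotypes, so that this shift cancels in the difference. The dye also marks the replicate numbers, and the genotype difference was larger among Cy5 samples than among Cy3 samples for 9 of the 10 members, all but Slc27a4. For Ugcg it was 0.27 in Cy3 and 0.58 in Cy5, for Abhd5 0.14 and 0.49, for Smpd1 0.42 and 0.58, and for Alox12b 0.01 and 0.43. With 2 arrays of a genotype in each dye these values were not tested against each other. In the pair of replicates numbered 3, 7 of the 10 members had a difference below 0, against 1 or 2 members in each of the other pairs. The shares of all targets with these dye and pair patterns were not counted. Whether the patterns are particular to the members or belong to whole arrays was not tested.

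**Figure D3:**
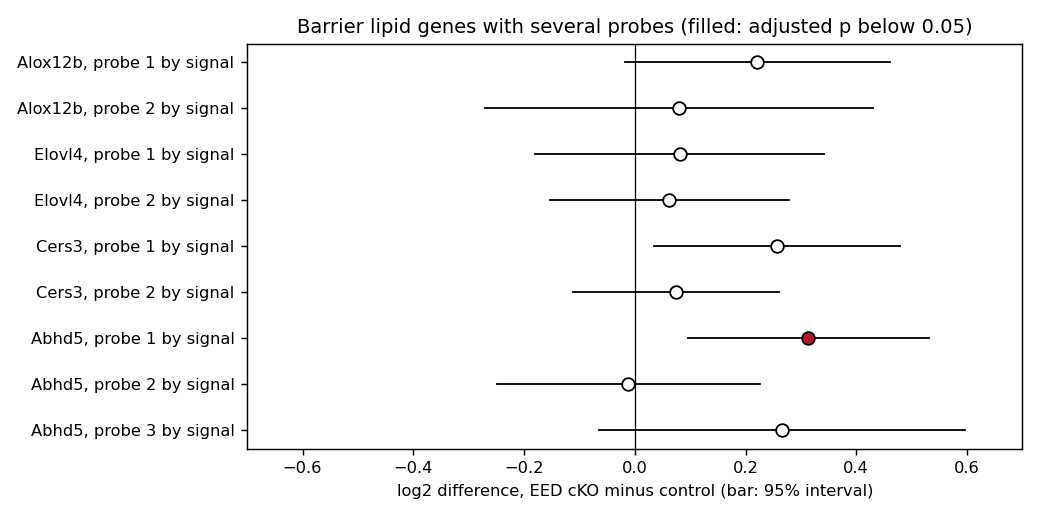
Log2 difference of EED cKO minus control (horizontal axis) for every probe of the 4 barrier lipid genes that have several probes, in order of signal, with lines for the 95% interval in a fit with every probe on its own. The probe of Abhd5 with the strongest signal is filled (adjusted p below 0.05) and its second probe lies at −0.01.

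Larger differences stood among other genes of the same pathways. Over 6 lists of related genes, 128 of 135 genes were tested, of which 19 were higher and 20 lower (30.5%, against 21.7% of all targets). Among them 4 were at least 2-fold higher and 0 at least 2-fold lower, against 1.20% of all targets in either direction. Beside the counts of each list below stand the shares over all targets, 11.8% higher and 9.93% lower. At an unadjusted p below 0.05 in limma these shares are 19.5% and 16.3%. In the methods' t-test after adjustment they are 2.56% and 1.38%, so counts near 0 are close to the background there. The lists leave out the members. They were drawn up with earlier results of these data known, and their counts are a description.

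In ceramide synthesis and processing, to which Cers3 and Ugcg belong by function, 5 of 24 genes were higher, 4 were lower and the median was 0.01. Degs2, the dihydroceramide desaturase and hydroxylase that makes phytoceramides, had log2 ratios of 4.18 to 5.09 in EED cKO and 1.68 to 2.74 in control. No array overlapped, and Degs2 was 5.39-fold higher (log2 difference 2.43, SE 0.24, limma adjusted p = 0.000381). Its reference channel also differed, by 0.35 (adjusted p = 0.0238), and the sample channel alone gave 2.78. Cers4, another ceramide synthase, ran from 0.43 to 0.76 in EED cKO and from −1.25 to −0.91 in control, which is 3.26-fold higher (log2 difference 1.71, SE 0.07, adjusted p = 1.59e-06). Cers3, the ceramide synthase among the members, did not pass in the same fit, with a log2 difference of 0.26. Ormdl1, a regulator of serine palmitoyltransferase, was higher by 0.66. Ceramide kinase, Cerk, was lower, with a log2 difference of −0.63 (SE 0.12), and so was the ceramide synthase Cers5, at −0.26 (SE 0.07).

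In fatty acid elongation and activation, to which Elovl4 and Slc27a4 belong by function, 0 of 32 genes were higher and 6 were lower, with a median of −0.03. At an unadjusted p below 0.05 limma still had 0 higher and had 7 lower, and the methods' t-test after adjustment had 0 in either direction. Acsl1, which activates long-chain fatty acids, was lower, with a log2 difference of −0.57 (SE 0.12, limma adjusted p = 0.00983), but its second probe gave −0.31 (adjusted p = 0.162) and the median over its probes −0.44 (adjusted p = 0.0504), neither of which passed. In the list around Alox12b and Aloxe3, 3 of 10 genes were higher and 1 was lower. Alox12e, the epidermal-type lipoxygenase, was higher by 0.63 (SE 0.13), and Tgm1, the transglutaminase of the cornified envelope, by 0.41 (SE 0.13). Alox12, the platelet-type lipoxygenase, had a log2 difference of −0.89 (SE 0.15, adjusted p = 0.00377), with EED cKO values of 1.77 to 2.49 and control values of 2.76 to 3.05. In the authors' ratios it was −0.48 and was not called (adjusted p = 0.0603). The lipoxygenase genes thus had differences in both directions, and Alox12b and Aloxe3 did not pass.

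In lamellar granule and extracellular lipid processing, where Abca12 and Smpd1 act, 6 of 14 genes were higher and 0 lower, with a median of 0.32. At an unadjusted p below 0.05 limma had 8 higher and 0 lower, and the methods' t-test after adjustment had 1 higher and 0 lower. Pla2g4e, a phospholipase, ran from 1.60 to 2.23 in EED cKO and from 0.65 to 1.18 in control (log2 difference 1.05, SE 0.13, limma adjusted p = 0.00132). It was not called in the Feature Extraction log ratios, where the log2 difference was 0.28. The lipases Lipk and Lipn, expressed in differentiating keratinocytes, were higher by 0.95 (SE 0.22) and 0.91 (SE 0.17).

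In cholesterol synthesis 1 of 27 genes was higher and 4 were lower, with a median of −0.04. Srebf2, the transcription factor that drives the pathway, had a log2 difference of −0.61 (SE 0.10, limma adjusted p = 0.00343), though its second probe gave −0.16 (adjusted p = 0.124). Mvk, which encodes mevalonate kinase, was lower, with a log2 difference of −0.43 (SE 0.13), and its second probe, at −0.30 (adjusted p = 0.122), did not pass. Among transcription factors of epidermal differentiation 4 of 21 were higher and 5 lower. Ehf, an ETS factor of differentiating epithelia, was higher by 1.62 (SE 0.18), Pparg, a nuclear receptor for fatty acids, by 0.56 (SE 0.08), and Hopx by 0.44 (SE 0.10). Klf4, a factor needed for barrier formation, had a log2 difference of −0.70 (SE 0.14), and Gata3, which also acts in barrier formation, one of −0.52 (SE 0.13). With 1 array left out, the limma adjusted p rose to as much as 0.0819 for Cers5, 0.119 for Tgm1, 0.0513 for Lipk, 0.124 for Mvk, 0.0594 for Hopx and 0.06 for Gata3, so each of these calls was lost in at least 1 such fit. The calls of Cers5, Lipk, Mvk and Gata3 were lost in the authors' ratios as well. The calls of Degs2, Cers4, Ormdl1, Srebf2, Ehf and Pparg held under all 25 alternatives, some of which use the same ratios as others.

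**Figure D4:**
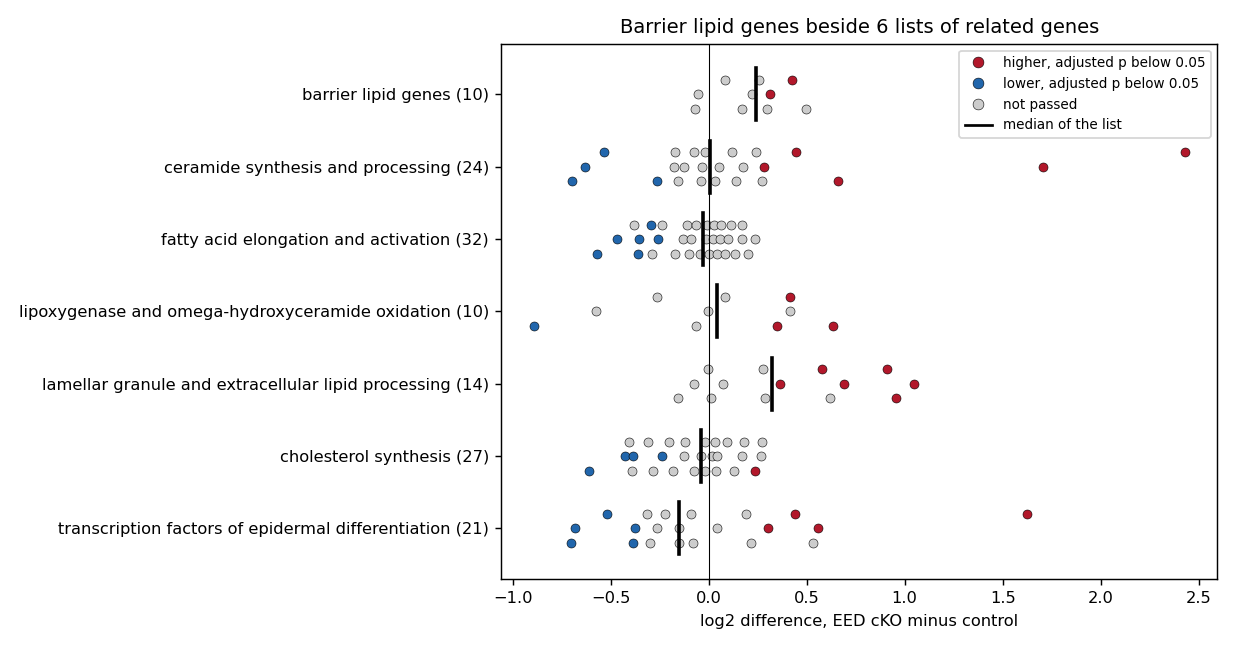
Log2 difference of EED cKO minus control (horizontal axis) for each tested gene of the barrier lipid genes and of the 6 related lists, with the number tested in brackets, red for higher and blue for lower at an adjusted p below 0.05, grey for the rest, and a black line at the median of each list. The barrier lipid genes lie between −0.07 and 0.50, while Degs2 at 2.43, Cers4 at 1.71 and Ehf at 1.62 stand far to the right.

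The RNA came from whole epidermis, in which fewer cells of a type and less RNA per cell cannot be told apart. The markers of the spinous, granular and cornified layers, where barrier lipids are made, had 5 of 14 genes higher and 0 lower, and their median log2 difference of 0.21 was close in size to the 0.24 of the barrier lipid genes. Their mean log2 ratio was 3.61 to 4.11 on the EED cKO arrays and 3.24 to 3.76 on the control arrays. Krt1 and Krt10, keratins that define these layers, had log2 differences of 0.11 (SE 0.07, limma adjusted p = 0.319) and 0.14 (SE 0.09, adjusted p = 0.276). Of the basal keratinocyte markers 0 of 12 were higher and 6 were lower, with a mean of 2.53 to 2.85 in EED cKO and 2.58 to 3.24 in control, although Krt5 and Krt14 did not pass, at 0.06 (SE 0.08) and 0.11 (SE 0.08). Of the sebocyte markers, a cell type that also makes lipids, 2 of 9 were higher, 1 of them Pparg, and their mean was −0.08 to 0.21 in EED cKO and −0.20 to −0.17 in control, without overlap. At an unadjusted p below 0.05 limma had 0 lower among the 14 markers of the upper layers and 0 higher among the 12 basal markers, and the methods' t-test after adjustment had 1 higher in the first list and 1 lower in the second. Of markers of other cells, 7 of 8 Merkel cell genes, 5 of 13 hair follicle genes, 3 of 5 adipocyte genes, 2 of 4 endothelial genes, 2 of 8 immune genes and 1 of 9 fibroblast genes were higher, and 2 hair follicle genes and 1 fibroblast gene were lower. The lists share genes. Pparg is also 1 of the 3 higher adipocyte genes, and Gata3 is 1 of the 2 lower hair follicle genes. Both are counted among the transcription factors above as well. Beside the counts of every marker list stand the shares over all targets, 11.8% higher and 9.93% lower. At an unadjusted p below 0.05 in limma these shares are 19.5% and 16.3%. For the methods' t-test after adjustment they are 2.56% and 1.38%. Adipoq of the adipocyte markers and Cdh5, Esam and Tek of the endothelial markers were well above background on no array. Of the 8 melanocyte, 4 muscle and 3 erythroid genes tested, 0 passed in limma and 0 in the methods' t-test after adjustment, while limma had 2, 1 and 1 of them higher and 2, 0 and 0 lower at an unadjusted p below 0.05. The part of these shifts in the differences of the barrier lipid genes was not tested.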

How the data were processed

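RNA of 4 EED cKO and 4 control epidermis samples was measured on 2-colour Agilent SurePrint G3 mouse arrays against Universal Mouse Reference RNA, and genotype, replicate number and dye were taken from the sample labels. The authors deposited for each array the output of Agilent Feature Extraction 12.0.1.1, with the median intensity of each spot and of its local background in both channels, not normalized, and with background flags. The deposited log10 ratio (Cy5 over Cy3) had been background-subtracted and dye-normalized by the software. A deposited table of log2 ratios held, for single-spot probes, the sample over reference ratio of the processed signals to within 0.001, uncentred.

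From the median intensities, background was corrected by normexp (offset 50), each array was normalized by loess with control spots and outlier flags at weight 0, and ratios were turned to sample over reference. The mean spot signal was not among the columns, so the median was used. Normexp with an offset draws dim spots toward 0 and understates their differences. Spots of a probe were averaged, and the probe with the highest mean signal stood for a gene. Accessions were named through RefSeq (GRCm38.p6), which matched 28026 of 29796 probes with such an accession. A target was tested where its sample signal was well above background on 3 or more arrays of a genotype, which held for 23139 of 36799. The test was made with limma 3.58.1 in R 4.3.3 (genotype plus dye) and Benjamini-Hochberg adjustment. In these, 19 missing values were left out of the fit, none in a member. Single members were compared by an exact permutation test as well. The scripts were tested on simulated data.

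The members and the gene lists were chosen with earlier results of these data known. Named are all 10 members, Eed, up to 3 higher and 3 lower genes of each related list by size of the difference among those with an adjusted p below 0.05 and groups that do not overlap, and the first 2 measured markers of a cell type beside a result of the members. A gene that this rule names is not reported here. Pparg as a sebocyte and adipocyte marker, Gata3 as a hair follicle marker and the markers above background on no array were named after their values were seen.

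Samples of the same replicate number deviated together from their group means, with correlations of 0.49, 0.68, 0.33 and 0.36, and of 0.13 and 0.46 once the dye was removed. The number also marks the dye, and the labels do not say what it stands for. The blocked fit is given where it changed a call of a member, and for Ugcg, whose call it kept. Alternatives covered the background correction, source of the ratios, normalization, filter, treatment of several probes, covariates, variance model, test, channel and arrays. They were not independent of each other. Normalization between arrays (Aquantile) left the ratios as they were, and every probe on its own changed the adjustment but not the differences. The Feature Extraction and deposited ratios are nearly the same values. With 4 arrays a genotype, their number limits the precision.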

Additional observations from a re-analysis of the deposited data

Results flagged for a closer look

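Of 62 groups of 4 arrays examined, namely each genotype for each named gene, 1 held an array far from the others, and chance flags about 1 group in 20. The log2 ratio of Aloxe3 on control replicate 1 was 2.957, whereas the other control arrays lay between 3.356 and 3.416. The gap to the nearest of them was 0.868 of the range of the group.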

How the results depend on the processing

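No member was lower or at least 2-fold different under any of the 25 alternatives run. The number of members higher, 2 with the settings of the report, was 0 with median centring, the ratios of Feature Extraction, those of the deposited table, no filter on dim probes, the median over the probes of a gene, no dye term, the methods' t-test and the sample channel alone. It was 1 with the intensity trend, and 4 both with the Y-linked level as covariate and without control replicates 2 and 3. The share of all targets higher, 11.8% with the settings of the report, moved as well. Among the settings listed above with 0 members it ran from 2.56% with the methods' t-test and 4.38% with median centring to 9.82% with the median over probes. This share was 11.7% with the intensity trend, 7.58% with the Y-linked level and 7.06% without control replicates 2 and 3. With 1 array left out the number of members higher ranged from 0 to 5, with 5 without control replicate 3. The share of all targets higher was then 6.85% to 11.1%, and 11% without control replicate 3. With the replicate number as a block 2 members were higher, against 14.1% of all targets. Ugcg was kept, Abhd5 was lost and Smpd1 was gained, and the block changed no call of the other members. Ugcg passed in 9 and Abhd5 in 8 of the 25 alternatives. Among these passes are the normalization between arrays (Aquantile) and the fit with every probe on its own. Both keep the log2 differences of the report, so their passes add little.

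The median log2 difference of the members stayed above 0 in all of them, from 0.08 with median centring to 0.38 without control replicates 2 and 3. Among all targets called, 54.3% were higher, and 39.7% with median centring. Elovl4 turned to −0.092 with median centring, and ranged from −0.028 to 0.16 with 1 array left out. Pnpla1 turned to 0.26 with the Y-linked level as covariate and to 0.29 without control replicates 2 and 3, and ranged from −0.24 to 0.14 with 1 array left out.

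In the 6 related lists, 19 genes were higher and 20 lower. Higher were 11 with either set of the authors' ratios (Feature Extraction, deposited table) and with no dye term, 10 with median centring, 7 with the methods' t-test, and 11 to 23 with 1 array left out. Lower were 9 with either set of the authors' ratios, 10 with median centring, 7 with no dye term and without control replicates 2 and 3, 6 with the Y-linked level, 2 with the methods' t-test, and 8 to 16 with 1 array left out. Fits without arrays have fewer samples, and the cause of the other shifts was not tested. At the methods' threshold, an unadjusted p below 0.05 and a difference of 2-fold or more, the t-test had 275 of all targets and 0 members.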
